A study of Mus musculus with 12 samples.

Results

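The endothelial and angiogenesis genes described here are 35 named genes of blood and lymph endothelium and of vessel sprouting. They were chosen by name out of 55450 genes in the count table, not by their levels, but with earlier results of these data known. Each was followed over the 12 libraries of a study of cytokine gene therapy in mouse prostate tumors. C57BL/6 males aged 8 to 10 weeks carried subcutaneous tumors of TC2R, a single line of TRAMP-C2 prostate adenocarcinoma cells with an activated H-ras, and every group received a plasmid by sonoporation of muscle on day 4. The pMCS group received the empty vector, the IL-27 group a plasmid for IL-27 with a non-specific peptide at its C-terminus, and the 27pepL group a plasmid for IL-27 with a C-terminal peptide that binds the IL-6 receptor alpha chain. The IL-18, 27→18 and 27pepL→18 groups received pMCS, IL-27 or 27pepL first and, on day 10, an injection of recombinant IL-18 into the tumor. Tumors were taken on day 26, each library was by its label a pool of 4 to 6 tumors, and each group held 2 libraries. The methods give 4 to 6 tumors per group, so the 2 libraries of a group may hold RNA of the same tumors. The labels do not say which animals a pool held, and the p-values below measure the spread between these libraries only. Actions of IL-27 and IL-18 against vessel growth are known from other models, and the question these genes address is whether the tumor vasculature differed between the groups.

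Blood endothelium lines vessels and is held together by junction proteins such as VE-cadherin. New vessels grow when VEGF, acting on its receptors, turns some endothelial cells into tip cells, which express sprouting genes and signal through Notch ligands to the stalk cells behind them. Lymphatic endothelium is a separate lineage that depends on the transcription factor Prox1. In RNA from whole tumor tissue, fewer endothelial cells and less RNA per endothelial cell cannot be told apart.

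Library totals ranged from 49844915 to 76620862 counts, at which 3 counts correspond to 0.0392 to 0.0602 CPM, that is counts scaled to a common library total, and the CPM values below use TMM factors in addition. The 2 libraries of a group correlated across genes at 0.873 in IL-27 and 0.917 in pMCS, and at 0.939 to 0.961 in the other groups. IL-27 replicate 1 held the highest sums of adipocyte, macrophage, leukocyte and fibroblast genes. Its 12 adipocyte genes summed to 14984 CPM, against 63.2 to 1387 in the other libraries, and its 12 macrophage genes to 2928 CPM, against 313 to 1169. Genes of hepatocytes, which the subcutaneous tumors should lack, summed to 204 to 327 CPM in the pMCS, IL-18 and IL-27 libraries and to at most 1.04 CPM in the other 6, with Alb, the serum albumin gene, at 0 in those 6. Epcam and Krt8, of epithelium, lay between 0.66 and 3.53 CPM and between 10.6 and 106 CPM.

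All 35 genes passed the filter on low counts, and the defining blood endothelial genes were present in every library. Per kilobase of their longest transcript, and averaged over the 12 libraries, the highest levels were those of Plvap at 31.9, Cd34 at 31.6 and Apln at 31.2 CPM per kilobase. Pecam1 followed at 15.4 and Cdh5 at 12.7 CPM per kilobase, while Kdr was at 2.13, Tek at 0.92, Mmrn1 at 0.17 and Prox1 at 0.04 CPM per kilobase. Stab2 and Clec4g, markers of liver sinusoid endothelium, did not exceed 0.24 and 0.38 CPM in any library. The whole list of liver sinusoid genes, however, summed to between 23.3 CPM in pMCS replicate 1 and 49.7 CPM in IL-27 replicate 1. The sum of the 35 genes was 447 and 720 CPM in pMCS, 748 and 774 in IL-18, 1303 and 524 in IL-27, 778 and 551 in 27→18, 716 and 779 in 27pepL, and 814 and 956 in 27pepL→18. The 2 IL-27 libraries were therefore further apart than any other pair, and their range covered all the other groups except pMCS replicate 1.

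**Figure D1:**
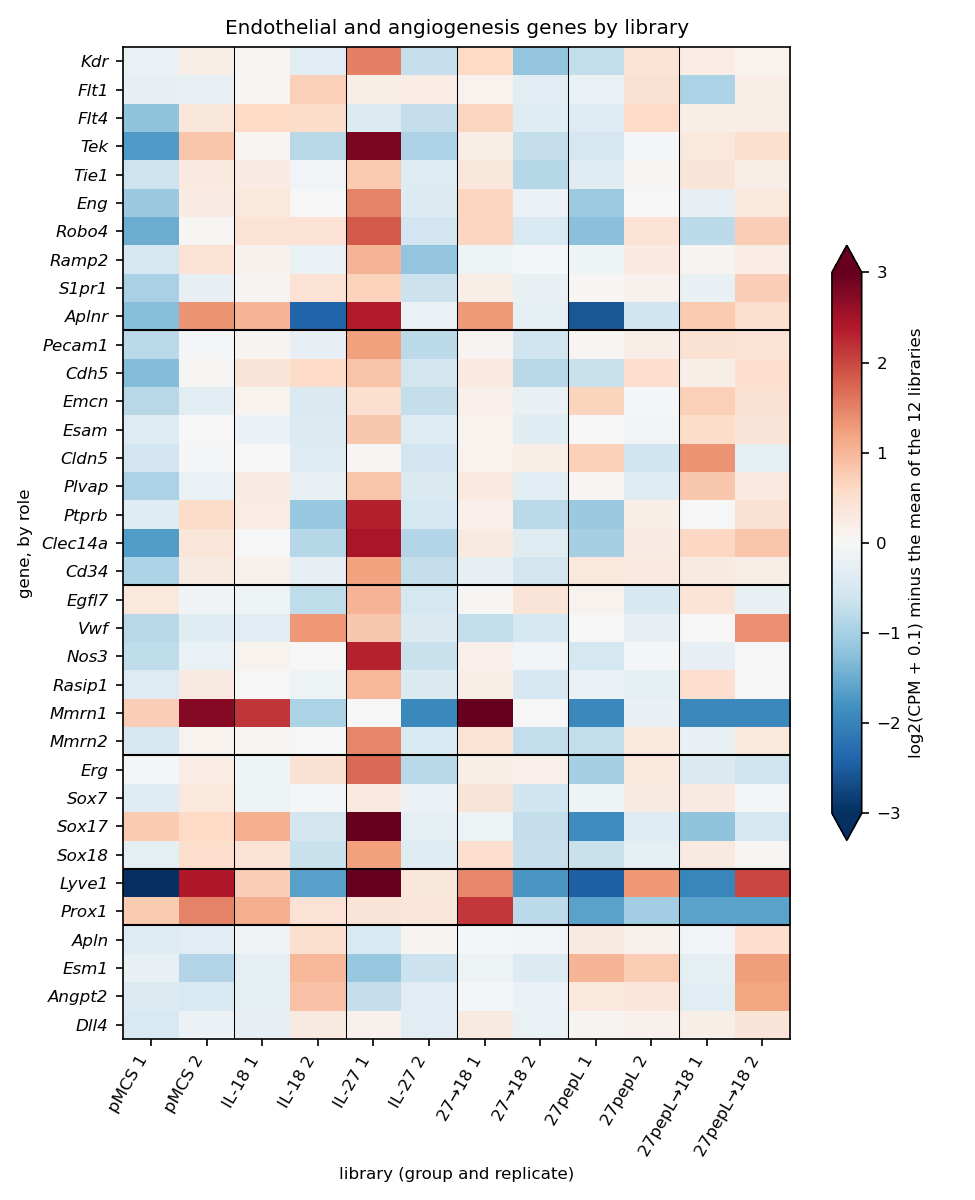
Level of each of the 35 genes, ordered by role, in the 12 libraries, as log2(CPM + 0.1) minus the mean of that gene over all libraries, with colours limited at 3 in both directions. IL-27 replicate 1 held the highest value of 22 genes and pMCS replicate 1 the lowest of 15, while Esm1, Angpt2 and Apln, among the sprouting genes at the bottom, were lowest in IL-27 replicate 1.

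No member passed an adjusted p of 0.05 in edgeR's quasi-likelihood test in any of the 10 comparisons made, 5 against pMCS, 3 between treated groups and 2 of the effect of IL-18 after a plasmid. The smallest adjusted p was 0.681. Of all 20417 tested genes, 0% passed in IL-18 and 0% in IL-27 against pMCS, while 27→18 had 0.235%, 27pepL 0.255% and 27pepL→18 0.23%. The share was 0.245% for 27pepL against IL-27, 0.245% for 27→18 against IL-27 and 0% for 27pepL→18 against 27pepL, and 0.147% and 0% for the effect of IL-18 after IL-27 and after 27pepL. edgeR's exact test gave 0 members as well in all 8 comparisons of groups, and DESeq2 gave 0 in 7 of them and 1, Prox1, in 27pepL→18 against pMCS. DESeq2 also gave 0 members in the 2 comparisons of the effect of IL-18. Without the filter on low counts edgeR called 2 members in 27pepL→18 against pMCS, Mmrn1 and Prox1, 4 in 27pepL against IL-27, Esm1, Lyve1, Sox17 and Aplnr, and 1 in 27→18 against IL-27, Mmrn1.

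At the thresholds the study used, an unadjusted p under 0.05 with a log2 fold change beyond 1, few members were counted. With 35 genes, a count of 1 or 2 cannot be read as a share that differs from that of all genes. In IL-18 against pMCS the count was 0, with 0 at an unadjusted p under 0.05 alone, where 0.828% of all genes were higher and 1.65% lower. In IL-27 against pMCS it was 1 member, Nos3, higher, where 3.44% of all genes were higher and 0.784% lower. In 27→18 against pMCS the count was again 0, with 0 at an unadjusted p under 0.05 alone, where 0.7% of all genes were higher and 1.61% lower. In 27pepL against pMCS 1 member was higher, Esm1, and 1 lower, Prox1, where 0.735% and 2.54% of all genes were. In 27pepL→18 against pMCS 2 members were higher, Emcn and Plvap, and 2 lower, Mmrn1 and Prox1, where 0.813% and 2.16% of all genes were. These 5 comparisons share the pMCS libraries.

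Against pMCS, the 35 genes had a median log2 fold change of 0.16 in IL-18 and 0.74 in IL-27, followed by 0.14 in 27→18, 0.09 in 27pepL and 0.35 in 27pepL→18. The median of all tested genes lay between -0.03 and 0.00 in the same comparisons. Positive log2 fold changes were seen for 20, 30, 23, 21 and 28 of the 35 genes, where 47.9%, 50.1%, 49.8%, 46.8% and 47.2% of all genes were positive. The SD of the member median between libraries of a group, pooled over the 6 groups, was 0.54 on the log2 scale, so that the medians other than that of IL-27 were smaller than this spread. Members above both pMCS libraries in both treated libraries numbered 9 in IL-18, 1 in IL-27, 6 in 27→18, 10 in 27pepL and 11 in 27pepL→18, where 19.3%, 10.7%, 12.3%, 13.5% and 14.1% of all genes were. Members below both numbered 1, 2, 1, 4 and 4, where 19.4%, 11.6%, 11.5%, 14.6% and 15% of all genes were. The median of IL-27 turned to -0.28 without its replicate 1. Without pMCS replicate 1 the medians of IL-18, 27→18, 27pepL and 27pepL→18 turned to -0.11, -0.16, -0.21 and -0.005.

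**Figure D2:**
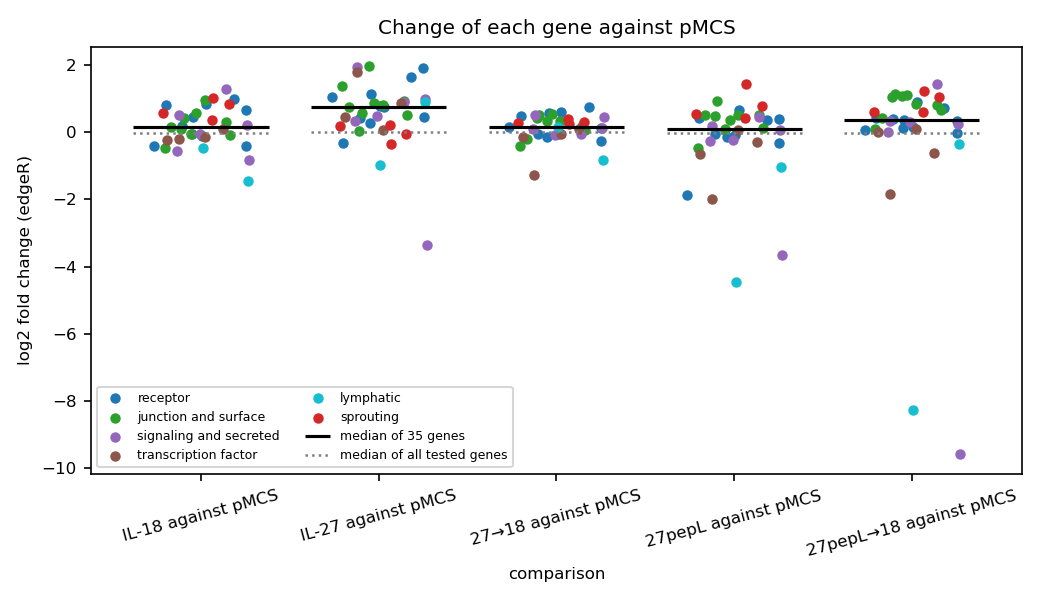
Log2 fold change of each of the 35 genes against pMCS in the 5 treated groups, coloured by role, with the median of the 35 as a black line and that of all tested genes dotted. The medians lie between 0.09 and 0.74, and Prox1 and Mmrn1 stand apart below in the 27pepL→18 group at -8.26 and -9.58, sizes that are not measured because both libraries held 0 counts.

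The sprouting genes Esm1, Angpt2, Apln and Dll4 were all higher in both 27pepL libraries than in both pMCS libraries, where 13.5% of all genes were. Esm1, Angpt2 and Apln were lowest in IL-27 replicate 1 and Dll4, like 14 other members, in pMCS replicate 1. Esm1 encodes endocan, a proteoglycan secreted by tip cells. Angpt2 encodes angiopoietin-2, a ligand of the Tek receptor released by activated endothelium. Apln encodes apelin, the ligand of Aplnr, which tip cells and other cells make under low oxygen, and Dll4 is the Notch ligand of the tip cell.

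Esm1, on chromosome 13, was at 14.6 and 9.23 CPM in pMCS, 14.1 and 34.5 in IL-18, 7.81 and 10.9 in IL-27, 15.4 and 12.9 in 27→18, 35.2 and 29.2 in 27pepL, and 14.03 and 41.2 in 27pepL→18. Its log2 fold change in 27pepL was 1.43 ± 0.57 (SE, unadjusted p = 0.0318, adjusted p = 1) against pMCS. It was no longer past the unadjusted limit in edgeR's test without pMCS replicate 2 (1.18, unadjusted p = 0.143) or without 27pepL replicate 1 (1.30, unadjusted p = 0.0898). Against IL-27 it was 1.78 ± 0.57 (SE, unadjusted p = 0.012, adjusted p = 0.726), and without IL-27 replicate 1 it was 1.56 (unadjusted p = 0.0622). Both 27pepL libraries lay above all pMCS, IL-27 and 27→18 libraries, while the IL-18 and 27pepL→18 libraries each split into a value near pMCS and a value above 34 CPM.

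Angpt2, on chromosome 8, was at 20.2 and 19.6 CPM in pMCS, 22.1 and 49.2 in IL-18, 16.3 and 21.7 in IL-27, 25.7 and 23.8 in 27→18, 33.4 and 34.4 in 27pepL, and 21.6 and 60.7 in 27pepL→18. Both 27pepL libraries were above both pMCS libraries, and so were both of IL-18, 27→18 and 27pepL→18, with a log2 fold change of 0.77 ± 0.50 (SE, unadjusted p = 0.156, adjusted p = 1) in 27pepL and 1.05 ± 0.50 (SE, unadjusted p = 0.064, adjusted p = 1) in 27pepL→18. Neither passed the unadjusted limit. Apln, on chromosome X, was at 73.7 and 76.9 CPM in pMCS, 89.6 and 135 in IL-18, 70.3 and 102 in IL-27, 91.8 and 91.3 in 27→18, 115 and 104 in 27pepL, and 90.7 and 137 in 27pepL→18, and its log2 fold change was 0.54 ± 0.31 (SE, unadjusted p = 0.114, adjusted p = 1) in 27pepL. Dll4, on chromosome 2, was at 8.42 and 10.3 CPM in pMCS, 9.74 and 14.1 in IL-18, 12.7 and 9.13 in IL-27, 14.2 and 10.1 in 27→18, 12.3 and 12.8 in 27pepL, and 13.2 and 15.3 in 27pepL→18, and its log2 fold change was 0.61 ± 0.35 (SE, unadjusted p = 0.115, adjusted p = 1) in 27pepL→18. Apln and Dll4 both kept within a 2-fold range over the 12 libraries, with ratios of highest to lowest of 1.95 and 1.81, while those of Esm1 and Angpt2 were 5.27 and 3.72.

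The same 4 libraries, 27pepL replicates 1 and 2, IL-18 replicate 2 and 27pepL→18 replicate 2, held the 4 highest values of Esm1, of Angpt2 and of Apln. Esm1 lay between 29.2 and 41.2 CPM in them and between 7.81 and 15.4 CPM in the other 8, and Angpt2 between 33.4 and 60.7 CPM against 16.3 to 25.7 CPM. For Apln the gap was narrow, with 104 to 137 CPM against 70.3 to 102 CPM. Dll4 shared 2 of these libraries among its 4 highest. The trend of each library with transcript length, a Spearman correlation across genes between the deviation of a gene from its mean and its length, was -0.19, 0.29, 0.28 and 0.18 in these 4 libraries and -0.40 to 0.16 in the others. With this trend as a covariate the log2 fold change of Esm1 in 27pepL against pMCS was 1.395 (unadjusted p = 0.0419).

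Apln, Angpt2 and S1pr1 were above both pMCS libraries in 9 of the 10 treated libraries, 3 of 35 members where 3.21% of all tested genes were, and 0 members were below both in 9 of 10, where 3.48% were. For Apln and Angpt2 the exception was IL-27 replicate 1. S1pr1, a receptor for the lipid sphingosine 1-phosphate that steadies vessels, was at 17.6 and 29.1 CPM in pMCS, 36.9 and 47.1 in IL-18, 56.5 and 22.2 in IL-27, 40.1 and 29.9 in 27→18, 35.7 and 37.9 in 27pepL, and 29.6 and 58.1 in 27pepL→18, and its exception was IL-27 replicate 2. When the sprouting genes were divided by Pecam1 or by Cdh5 of the same library, the 27pepL and pMCS libraries overlapped for each of the 4. The ratio of Esm1 to Pecam1, for instance, was 0.69 and 0.52 in 27pepL and 0.52 and 0.20 in pMCS.

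**Figure D3:**
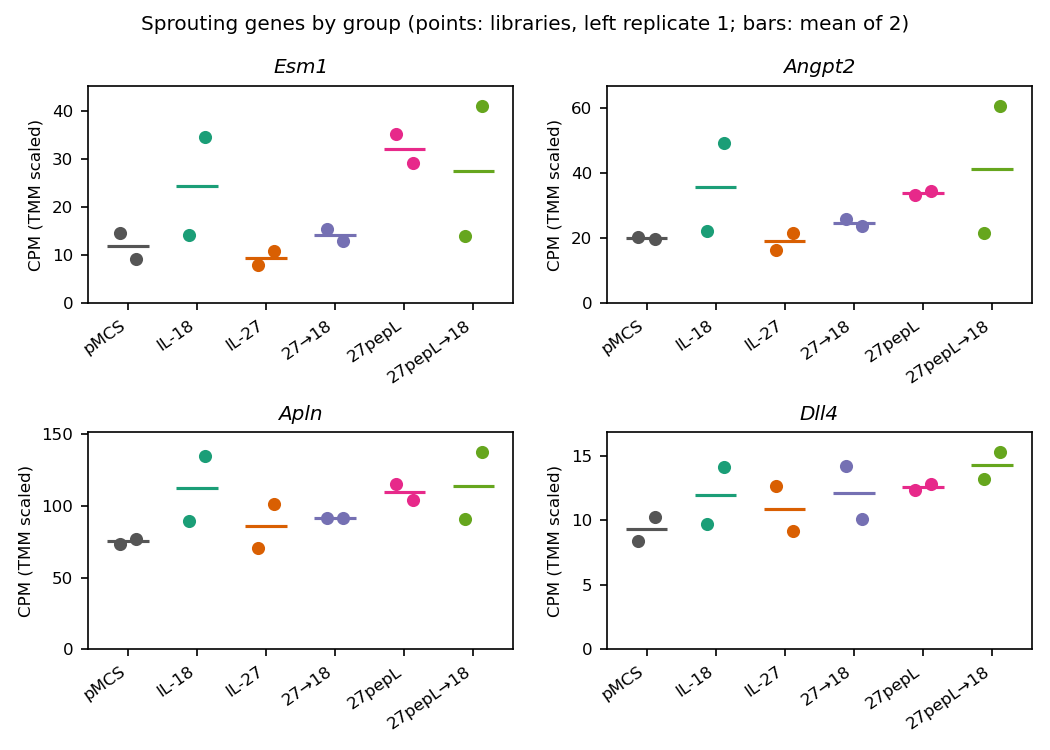
CPM of Esm1, Angpt2, Apln and Dll4 in the 12 libraries, 1 point per library with replicate 1 on the left and a bar at the mean of the 2. Both 27pepL points are above both pMCS points in each panel, and IL-18 replicate 2 and 27pepL→18 replicate 2 reach 34.5 and 41.2 CPM for Esm1 and 49.2 and 60.7 CPM for Angpt2.

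The promoters of Esm1 and Apln are shown because these genes shared their highest libraries, and that of Dll4 for comparison. RefSeq's promoter table on GRCm38.p6 held 19 of the 35 members, among them Esm1, Apln and Dll4. The sequences are the 250 bases before the gene's start, 5′ to 3′ on the gene's strand, at chr13:113209409-113209658 (plus strand) for Esm1, chrX:48034854-48035103 (minus strand) for Apln and chr2:119325534-119325783 (plus strand) for Dll4. Capitals mark AGGAAG or CGGAAG, the core read by ETS factors such as Erg, or ACGTG or GCGTG, the core of the hypoxia response element, on either strand.
Esm1: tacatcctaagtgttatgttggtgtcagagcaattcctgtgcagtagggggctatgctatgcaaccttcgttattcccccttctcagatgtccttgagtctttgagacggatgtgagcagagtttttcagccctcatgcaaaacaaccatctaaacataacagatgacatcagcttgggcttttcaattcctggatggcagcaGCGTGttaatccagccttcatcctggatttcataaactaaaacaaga
Apln: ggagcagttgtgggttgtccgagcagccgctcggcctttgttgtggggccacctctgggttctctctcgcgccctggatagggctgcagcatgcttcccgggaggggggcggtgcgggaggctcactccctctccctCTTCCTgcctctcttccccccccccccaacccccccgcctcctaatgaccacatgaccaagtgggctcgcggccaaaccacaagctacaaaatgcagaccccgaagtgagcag
Dll4: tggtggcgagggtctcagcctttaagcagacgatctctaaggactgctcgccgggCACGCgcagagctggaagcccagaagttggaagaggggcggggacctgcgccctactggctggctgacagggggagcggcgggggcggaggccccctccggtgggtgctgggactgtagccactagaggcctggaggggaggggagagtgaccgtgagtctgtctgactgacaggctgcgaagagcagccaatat
Esm1 and Dll4 each held 1 hypoxia core, and Apln held 1 ETS core. The core TGGGAA, read by the Notch effector CSL, was in none of these 3 windows. Over the 19 members the ETS core was in 10 (52.6%), the hypoxia core in 8 (42.1%) and the CSL core in 6 (31.6%), and over all 27025 genes of the table in 42.5%, 41.5% and 24.1%. These matches are descriptions of letters, and between 24.1% and 42.5% of all genes held the same cores.

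In most other members the widest gap lay between the 2 IL-27 libraries. IL-27 replicate 1 was the highest library for 7 of 10 receptors, 7 of 9 junction and surface genes, 4 of 6 signaling and secreted genes and 3 of 4 transcription factors, and exceeded IL-27 replicate 2 by over 2-fold for 25 of the 34 members with a level in both. All 12 macrophage genes and all 12 adipocyte genes had a positive log2 fold change in IL-27 against pMCS, where 50.1% of all genes did. In both IL-27 libraries, 2 and 0 of them were above both pMCS libraries, where 10.7% of all genes were. The part of macrophage and adipocyte RNA in the endothelial values was not tested.

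**Figure D4:**
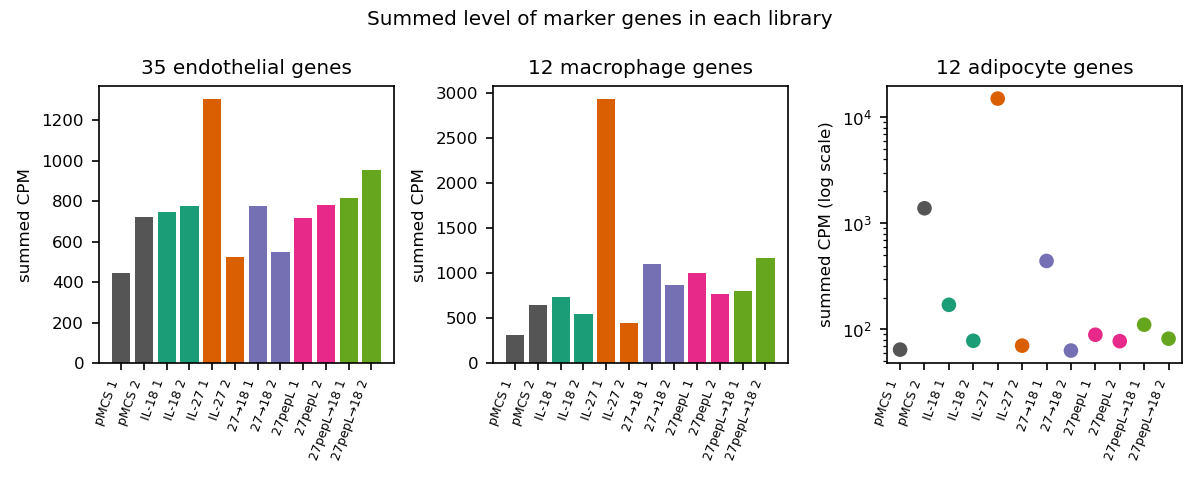
Summed CPM of the 35 endothelial and angiogenesis genes, of 12 macrophage genes and of 12 adipocyte genes (log axis) in each library, coloured by group. IL-27 replicate 1 has the highest of each sum, at 1303, 2928 and 14984 CPM.

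Among the receptors, Kdr (VEGF receptor 2, the main growth signal of blood endothelium) was at 9.82 and 12.9 CPM in pMCS, 11.8 and 8.99 in IL-18, 32.2 and 6.92 in IL-27, 17.1 and 4.87 in 27→18, 6.67 and 14.9 in 27pepL, and 13.1 and 12.1 in 27pepL→18. IL-27 replicate 1 stood at 1.88 times the next library and replicate 2 below both pMCS libraries. Flt1 (VEGF receptor 1, which also acts as a decoy for VEGF) was at 26.4 and 26.5 CPM in pMCS, 32.6 and 51.3 in IL-18, 35.3 and 36.6 in IL-27, 33.5 and 24.4 in 27→18, 27.1 and 42.5 in 27pepL, and 16.1 and 35.97 in 27pepL→18. Both IL-27 libraries and both IL-18 libraries were above both pMCS libraries, with log2 fold changes of 0.44 ± 0.42 (SE, unadjusted p = 0.319, adjusted p = 1) and 0.67 ± 0.42 (SE, unadjusted p = 0.147, adjusted p = 1), neither past the test. Flt1 was thus the member whose IL-27 libraries were both above pMCS.

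Tek, the angiopoietin receptor Tie2, was at 0.83 and 5.32 CPM in pMCS, 3.05 and 1.61 in IL-18, 21.4 and 1.48 in IL-27, 3.37 and 1.75 in 27→18, 2.04 and 2.83 in 27pepL, and 3.65 and 4.12 in 27pepL→18. IL-27 replicate 1 was 4.02 times the next highest library, and the remaining values lay between 0.83 and 5.32 CPM. Tie1, its partner receptor, was at 11.9 and 22.5 CPM in pMCS, 21.9 and 17.3 in IL-18, 31.8 and 14.1 in IL-27, 23.3 and 10.1 in 27→18, 14.2 and 18.8 in 27pepL, and 24.2 and 21.1 in 27pepL→18. Eng, or endoglin, a co-receptor for BMP and TGF-beta ligands, was at 11.8 and 30.3 CPM in pMCS, 32.2 and 25.6 in IL-18, 72.6 and 19.2 in IL-27, 40.3 and 22.6 in 27→18, 12.1 and 25.8 in 27pepL, and 21.6 and 31.95 in 27pepL→18. Every treated group overlapped with pMCS for both genes.

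Flt4, VEGF receptor 3, which serves lymphatic and sprouting blood vessels, was at 2.39 and 7.19 CPM in pMCS, 8.67 and 8.26 in IL-18, 4.23 and 3.38 in IL-27, 8.83 and 4.41 in 27→18, 4.31 and 8.49 in 27pepL, and 6.38 and 6.51 in 27pepL→18. Both IL-18 libraries were above both pMCS libraries, with a log2 fold change of 0.82 ± 0.58 (SE, unadjusted p = 0.192, adjusted p = 1). Aplnr, the apelin receptor, was at 2.29 and 14.7 CPM in pMCS, 11.7 and 0.998 in IL-18, 30.1 and 4.94 in IL-27, 14.002 and 4.71 in 27→18, 0.88 and 3.75 in 27pepL, and 9.85 and 8.03 in 27pepL→18, and unlike its ligand Apln it was lowest in 27pepL replicate 1 and highest in IL-27 replicate 1, a 34.1-fold range. Robo4, a guidance receptor that stabilizes vessels, and Ramp2, part of the adrenomedullin receptor, ranged from 1.47 to 15.5 CPM and from 7.18 to 33.0 CPM.

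Among the junction and surface genes, 6 of 9 were higher in both 27pepL→18 libraries than in both pMCS libraries, where 14.1% of all genes were. The median log2 fold change of these 9 genes was 0.83, and all 9 were positive, where 47.2% of all genes were. For Pecam1, Cdh5, Emcn, Plvap, Clec14a and Cd34 the lowest of the 12 libraries was pMCS replicate 1. Without that library the median of all 35 members in 27pepL→18 was -0.005, and that of these 9 was not computed. Emcn (endomucin, a sialoglycoprotein of capillary and venous endothelium) was at 11.97 and 17.3 CPM in pMCS, 22.98 and 15.9 in IL-18, 30.2 and 13.03 in IL-27, 23.8 and 18.3 in 27→18, 34.3 and 20.97 in 27pepL, and 35.4 and 29.6 in 27pepL→18. Plvap (the diaphragm protein of fenestrated and tumor vessels) was at 30.6 and 51.9 CPM in pMCS, 70.3 and 51.4 in IL-18, 107 and 43.9 in IL-27, 73.2 and 47.6 in 27→18, 60.8 and 45.9 in 27pepL, and 104 and 73.6 in 27pepL→18. The log2 fold changes in 27pepL→18 were 1.15 ± 0.45 (SE, unadjusted p = 0.0313, adjusted p = 1) for Emcn and 1.11 ± 0.47 (SE, unadjusted p = 0.0401, adjusted p = 1) for Plvap. Without pMCS replicate 1 these became 0.91 and 0.78 (unadjusted p = 0.157 and unadjusted p = 0.209), and without 27pepL→18 replicate 1 they became 1.02 and 0.84 (unadjusted p = 0.102 and unadjusted p = 0.168). Plvap had a p of 0.0501 without IL-18 replicate 2. pMCS replicate 1 was the lowest library for both.

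Pecam1 (CD31, an adhesion molecule of endothelium and platelets) was at 28.1 and 46.9 CPM in pMCS, 52.1 and 41.1 in IL-18, 115 and 28.2 in IL-27, 52.2 and 32.2 in 27→18, 51.3 and 56.5 in 27pepL, and 67.1 and 64.9 in 27pepL→18. Both 27pepL→18 libraries lay above both pMCS libraries, and so did both 27pepL libraries, with log2 fold changes of 0.81 ± 0.56 (SE, unadjusted p = 0.178, adjusted p = 1) and 0.52 ± 0.56 (SE, unadjusted p = 0.373, adjusted p = 1). Cdh5 (VE-cadherin, the adherens junction protein of endothelium) was at 18.9 and 47.7 CPM in pMCS, 60.99 and 68.7 in IL-18, 84.7 and 31.6 in IL-27, 56.9 and 26.2 in 27→18, 29.4 and 66.04 in 27pepL, and 52.2 and 66.1 in 27pepL→18. Its IL-18 and 27pepL→18 libraries lay above both pMCS libraries, with a log2 fold change of 0.96 ± 0.62 (SE, unadjusted p = 0.157, adjusted p = 1) in IL-18, and its 27pepL libraries did not.

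Cldn5, the claudin of endothelial tight junctions, was at 10.3 and 14.9 CPM in pMCS, 15.1 and 11.7 in IL-18, 15.7 and 10.3 in IL-27, 16.4 and 17.7 in 27→18, 25.3 and 10.1 in 27pepL, and 39.4 and 12.8 in 27pepL→18. A single library, 27pepL→18 replicate 1, exceeded the rest, and its pair was below pMCS replicate 2. Esam, Clec14a, Ptprb and Cd34, surface proteins of endothelium of which Cd34 also marks other stromal cells, each had its highest value in IL-27 replicate 1, at 36.9, 13.9, 36.2 and 206 CPM, and their log2 fold changes in 27pepL→18 were 0.67, 1.08, 0.08 and 0.43.

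The other marker lists stood as follows in 27pepL→18 against pMCS, where 47.2% of all genes were positive and 14.1% above in both libraries. Of 14 pericyte and smooth muscle genes, which mark the cells that wrap vessels, 13 were positive and 6 were above pMCS in both libraries, with sums of 455 and 434 CPM against 227 and 314 CPM. Of 12 macrophage genes 10 were positive and 5 above in both libraries, with sums of 805 and 1169 CPM against 313 and 641 CPM. Leukocyte genes were positive in 9 of 10 tested, fibroblast genes in 7 of 10 and skeletal muscle genes in 10 of 11. Of these, 5, 2 and 3 were above in both libraries. Positive were 4 of 7 liver sinusoid, 4 of 6 platelet and 4 of 10 epithelium genes, with 2, 1 and 3 above in both. Of 12 adipocyte genes 0 were positive and 3 were below in both libraries. All 10 hepatocyte genes were below in both, where 15% of all genes were. The part of these cell types in the values of Emcn and Plvap was not tested.

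Among the signaling and secreted genes, Vwf (von Willebrand factor, stored in endothelium and platelets) was at 5.23 and 7.28 CPM in pMCS, 7.37 and 23.3 in IL-18, 16.5 and 6.92 in IL-27, 5.57 and 6.46 in 27→18, 9.23 and 7.81 in 27pepL, and 9.39 and 24.3 in 27pepL→18. IL-18 replicate 2 and 27pepL→18 replicate 2 were highest, and all other values were at or below 16.5 CPM. The 9 platelet and megakaryocyte genes summed to 53.6 and 122 CPM in those libraries and to 29.7 to 111 CPM in the other 10, and their part was not tested. The log2 fold change was 1.30 ± 0.65 (SE, unadjusted p = 0.0769, adjusted p = 1) in IL-18 and 1.43 ± 0.65 (SE, unadjusted p = 0.0556, adjusted p = 1) in 27pepL→18.

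Nos3 (endothelial nitric oxide synthase) was at 2.91 and 4.37 CPM in pMCS, 5.35 and 4.97 in IL-18, 25.01 and 3.14 in IL-27, 5.59 and 4.71 in 27→18, 3.46 and 4.79 in 27pepL, and 4.18 and 4.97 in 27pepL→18. Its log2 fold change in IL-27 against pMCS was 1.95 ± 0.77 (SE, unadjusted p = 0.0304, adjusted p = 1), and it rested on IL-27 replicate 1, which was 4.48 times the next library. Without that library the value was -0.20. The unadjusted limit was also missed without pMCS replicate 1 (1.68, unadjusted p = 0.133) or pMCS replicate 2 (2.34, unadjusted p = 0.0555). Egfl7 and Rasip1, a secreted protein of the endothelial matrix and a regulator of vessel lumen formation, and Mmrn2, another matrix protein, were also highest in IL-27 replicate 1, at 45.4, 17.1 and 24.6 CPM.

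Among the transcription factors, Erg, the ETS factor that keeps endothelial identity, was at 2.86 and 3.47 CPM in pMCS, 2.69 and 4.08 in IL-18, 9.88 and 1.63 in IL-27, 3.38 and 3.31 in 27→18, 1.45 and 3.70 in 27pepL, and 2.19 and 1.92 in 27pepL→18. IL-27 replicate 1 was 2.42 times the next library, and both 27pepL→18 libraries were below both pMCS libraries, with a log2 fold change of -0.63 ± 0.76 (SE, unadjusted p = 0.428, adjusted p = 1). Sox7, Sox17 and Sox18 are SOX factors of vessel development, and Sox17 is a factor of arterial identity. Sox17 ranged from 0.07 CPM in 27pepL replicate 1 to 6.03 CPM in IL-27 replicate 1, while Sox7 and Sox18 ranged from 3.66 to 7.36 CPM and from 4.66 to 17.8 CPM. Sox17 was below both pMCS libraries in 8 of the 10 treated libraries and above both in 2. Its mean was 0.93 CPM in pMCS, 0.38 in 27→18, 0.23 in 27pepL and 0.26 in 27pepL→18. In edgeR's test it was not at an unadjusted p under 0.05 in these groups against pMCS. Against IL-27, the log2 fold change of Sox17 was -3.80 ± 1.30 (SE, unadjusted p = 0.0165, adjusted p = 0.765) in 27pepL and -3.07 ± 1.26 (SE, unadjusted p = 0.0365, adjusted p = 1) in 27→18, and without IL-27 replicate 1 these became -0.88 and -0.17. The unadjusted limit was also missed in the former without 27pepL replicate 1 (-3.05, unadjusted p = 0.0846) and in the latter without 27→18 replicate 1 (-3.52, unadjusted p = 0.0837) or replicate 2 (-2.75, unadjusted p = 0.141).

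Prox1 and Mmrn1, genes of lymphatic endothelium, were near or at 0 in the libraries that had received 27pepL. Prox1, on chromosome 1, is the transcription factor that sets lymphatic identity. It had 18 and 44 counts in pMCS, 34 and 25 in IL-18, 17 and 16 in IL-27, 99 and 4 in 27→18, 0 and 4 in 27pepL, and 0 and 0 in 27pepL→18. Scaled to library size these were 0.43 and 0.76 CPM in pMCS, 0.55 and 0.31 in IL-18, 0.30 and 0.30 in IL-27, 1.23 and 0.077 in 27→18, 0 and 0.048 in 27pepL, and 0 and 0 in 27pepL→18. Its log2 fold change in 27pepL was -4.47 ± 1.70 (SE, unadjusted p = 0.029, adjusted p = 1), which became -3.95 (unadjusted p = 0.0764) without pMCS replicate 2 and -3.56 (unadjusted p = 0.103) without 27pepL replicate 1. In 27pepL→18 the test gave -8.26 ± 2.25 (SE, unadjusted p = 0.00584, adjusted p = 0.681), a size that is not measured with 0 counts in both libraries, and Prox1 was at least 12.5-fold lower than pMCS when the group was set to 3 counts per library.

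Mmrn1, on chromosome 6, encodes multimerin-1, found in lymphatic endothelium and in platelets. It had 23 and 141 counts in pMCS, 98 and 8 in IL-18, 16 and 0 in IL-27, 302 and 15 in 27→18, 0 and 19 in 27pepL, and 0 and 0 in 27pepL→18. In 27pepL→18 it was at least 31.4-fold lower than pMCS on the same floor, with an unadjusted p of 0.0214 and an adjusted p of 1, and at least 11.5-fold lower without pMCS replicate 2 or 51.3-fold without replicate 1. The unadjusted p was 0.0525 without pMCS replicate 2, 0.0581 without 27pepL→18 replicate 1 and 0.0722 without 27pepL→18 replicate 2. Over the 4 libraries with 27pepL, Prox1 summed to 4 counts and Mmrn1 to 19, against 257 and 603 counts in the other 8. Of the counts in those 8, 27→18 replicate 1 alone held 302 of Mmrn1 and 99 of Prox1. The second libraries of IL-18, IL-27 and 27→18 were low as well, with 8, 0 and 15 counts of Mmrn1. For Prox1, 27→18 replicate 2 held 4 counts, as did 27pepL replicate 2.

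A list of 9 lymphatic genes, which included Flt4, was followed as well. In 27pepL and again in 27pepL→18 against pMCS, 5 of the 9 were positive, where 46.8% and 47.2% of all genes were. In each group 3 of the 9 were above both pMCS libraries in both libraries, where 13.5% and 14.1% of all genes were. In each 1 was below both, where 14.6% and 15% of all genes were. Of this list, Ccl21a, the chemokine by which lymphatic vessels draw dendritic cells, was also near or at 0 in the libraries with 27pepL. It had 64 and 909 counts in pMCS, 714 and 21 in IL-18, 8 and 15 in IL-27, 889 and 192 in 27→18, 0 and 8 in 27pepL, and 0 and 0 in 27pepL→18. The IL-27 group, without 27pepL, was low as well, with a mean of 0.21 CPM against 8.61 CPM in pMCS. Ccl21a was at least 181-fold lower in 27pepL→18 than in pMCS on the same floor, with an unadjusted p of 0.00347 and an adjusted p of 0.496. Without pMCS replicate 2 it was at least 31.9-fold lower, and without replicate 1 at least 331-fold. Its count is uncertain because near-identical copies of the gene could share its reads. Reln, a secreted glycoprotein of lymphatic endothelium and neurons, had 0 and 55 counts in pMCS, 40 and 26 in IL-18, 0 and 3 in IL-27, 130 and 0 in 27→18, 0 and 0 in 27pepL, and 3 and 8 in 27pepL→18. For Reln, 3 libraries without 27pepL were at 0 as well.

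Other lymphatic genes did not follow Prox1. Lyve1 (a hyaluronan receptor of lymphatic endothelium and of some macrophages) was at 0.35 and 29.1 CPM in pMCS, 9.08 and 1.68 in IL-18, 47.6 and 6.81 in IL-27, 14.8 and 1.54 in 27→18, 0.91 and 13.4 in 27pepL, and 1.31 and 21.8 in 27pepL→18, a 134-fold range, and in no group were its 2 libraries close to each other. Flt4, given above, was at 4.31 to 8.49 CPM in the 4 libraries with 27pepL and at 2.39 to 8.83 CPM in the other 8. Pdpn, podoplanin, which lymphatic endothelium shares with fibroblasts and tumor cells, was at 276 to 343 CPM and 160 to 332 CPM.

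Sums of other cell types differed between these libraries too. The adipocyte sum was 77.5 to 111 CPM in the 4 libraries with 27pepL. It was as low in pMCS replicate 1, at 64.5 CPM. In the second libraries of IL-18, IL-27 and 27→18 it was 78.2, 70.3 and 63.2 CPM. The 3 libraries highest in Mmrn1, pMCS replicate 2, IL-18 replicate 1 and 27→18 replicate 1, had adipocyte sums of 1387, 171 and 442 CPM. In IL-27 replicate 1, where Mmrn1 had 16 counts, the sum was 14984 CPM. Prox1 is also known from hepatocytes. The 6 pMCS, IL-18 and IL-27 libraries, with hepatocyte sums of 204 to 327 CPM, held 16 to 44 counts of Prox1. Of the 6 with sums of at most 1.04 CPM, 5 held 0 to 4 counts and 27→18 replicate 1 held 99. The part of hepatocyte RNA in the values of Prox1 was not tested. The part of adipose tissue in the lymphatic values was not tested.

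**Figure D5:**
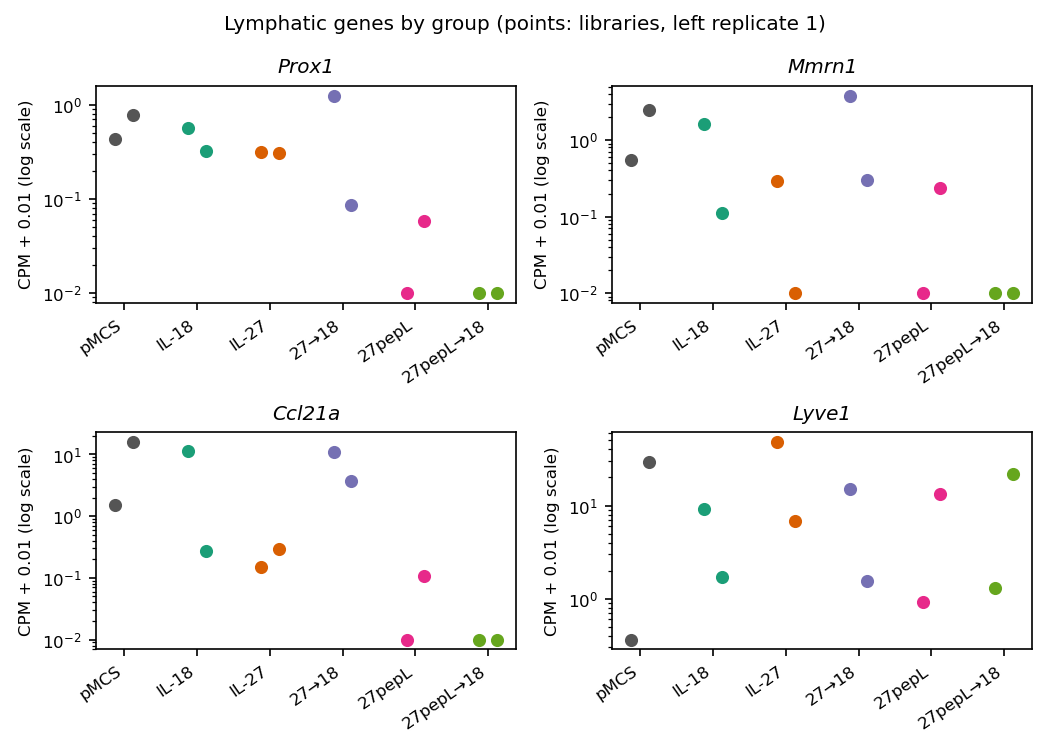
CPM + 0.01 of Prox1, Mmrn1, Ccl21a and Lyve1 in the 12 libraries on log axes, with replicate 1 on the left, so that libraries at 0 counts lie at 0.01. Prox1, Mmrn1 and Ccl21a are at 0 in 27pepL replicate 1 and in both 27pepL→18 libraries, while Lyve1 is between 0.91 and 21.8 CPM in the 4 libraries with 27pepL.

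Comparisons between treated groups gave few members. In 27pepL against IL-27, 1 member was higher, Esm1, and 2 lower, Sox17 and Nos3, where 0.744% and 4.45% of all genes were. With each of the 12 libraries left out in turn, Nos3 was no longer past these thresholds in 10 cases. The median of the 35 was -0.48 and that of all genes -0.09, and without IL-27 replicate 1 it was 0.39. In 27→18 against IL-27, 1 member, Sox17, was lower, where 2.95% of all genes were lower and 0.656% higher, with a median of -0.49. In 27pepL→18 against 27pepL the count was 0, with 0 at an unadjusted p under 0.05 alone, where 0.588% of all genes were higher and 0.456% lower. Its median was 0.28, 29 of 35 members were positive (49.6% of all genes), and 11 were above in both libraries, where 10.5% of all genes were.

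The effect of IL-18 after IL-27 was compared with its effect after pMCS. Vwf gave -2.25 ± 0.92 (SE, unadjusted p = 0.0355, adjusted p = 0.948) for this difference on the log2 scale. It was the 1 member at an unadjusted p under 0.05, where 1.49% of all genes were higher and 2.25% lower at that limit. After 27pepL 0 members were at an unadjusted p under 0.05, where 1.6% of all genes were higher and 0.774% lower.

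The partners of these genes were taken as 2 lists. In edgeR's test, 0 of 24 angiogenic ligands and inhibitors and 0 of 25 Notch, neuropilin and guidance partners passed an adjusted p of 0.05 in any comparison with pMCS. Vegfa, the main VEGF ligand, was at 228 and 130.0 CPM in pMCS, 155 and 289 in IL-18, 102 and 239 in IL-27, 194 and 208 in 27→18, 183 and 213 in 27pepL, and 207 and 241 in 27pepL→18, and every treated group overlapped with pMCS. Of the ligands, 3 of 24 had an unadjusted p under 0.05 in 27pepL against pMCS, 1 higher and 2 lower, where 1.09% of all genes were higher and 2.68% lower at that limit. Only the higher one also had a log2 fold change beyond 1, where 0.735% of all genes were higher and 2.54% lower. At both limits 0 ligands were called in IL-18, 2 in IL-27, 1 in 27→18 and 1 in 27pepL→18 against pMCS. All of these were higher, where 0.828%, 3.44%, 0.7% and 0.813% of all genes were. The lower ones were Sema3a, a semaphorin that repels growing vessels, at -0.90 ± 0.31 (SE, unadjusted p = 0.0173, adjusted p = 1), and Vegfb, a ligand of Flt1, at -0.68 ± 0.26 (SE, unadjusted p = 0.0254, adjusted p = 1).

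Among the Notch and guidance partners, Dll1, a second Notch ligand, gave the smallest p, in 27pepL→18 against pMCS, at 1.62 ± 0.48 (SE, unadjusted p = 0.00735, adjusted p = 0.786). Dll1 was at 0.97 and 1.92 CPM in pMCS, 2.66 and 2.81 in IL-18, 3.46 and 3.73 in IL-27, 2.29 and 1.56 in 27→18, 1.89 and 1.97 in 27pepL, and 4.86 and 4.02 in 27pepL→18, and both 27pepL→18 libraries were above all the others. Of all genes, 14.1% were above both pMCS libraries in both 27pepL→18 libraries. Ephb4, the ephrin receptor of veins, was at 17.7 and 64.4 CPM in pMCS, 101 and 85.8 in IL-18, 68.03 and 75.2 in IL-27, 58.4 and 78.2 in 27→18, 106 and 97.1 in 27pepL, and 125 and 86.4 in 27pepL→18, with 1.37 ± 0.50 (SE, unadjusted p = 0.0232, adjusted p = 1) in 27pepL→18, and pMCS replicate 1 was far below every other library.

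A further list of 32 endothelial genes outside the 35 gave medians against pMCS of 0.00 in IL-18, 0.94 in IL-27, 0.26 in 27→18, 0.29 in 27pepL and 0.40 in 27pepL→18, with no gene past an adjusted p. Of these, 1 passed the study's thresholds, Gpihbp1, which carries lipoprotein lipase across capillary endothelium. It was at 14.5 and 22.6 CPM in pMCS, 23.3 and 30.2 in IL-18, 40.4 and 14.6 in IL-27, 33.4 and 43.4 in 27→18, 31.7 and 26.5 in 27pepL, and 31.1 and 53.99 in 27pepL→18, with a log2 fold change in 27pepL→18 of 1.197 ± 0.49 (SE, unadjusted p = 0.0364, adjusted p = 1).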

How the data were processed

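RNA from pooled tumors was made into stranded TruSeq libraries, as poly(A) RNA in the methods and as total RNA in the labels, and sequenced paired-end. The authors trimmed reads with Cutadapt, checked them with FastQC 0.11.3, aligned them with HISAT2, assembled transcripts with StringTie and gffcompare and used edgeR for differential expression. Neither a genome build nor an annotation release is named, and how StringTie's output became counts is not given in the sources used here. Deposited values are raw gene counts, unscaled whole numbers, in 12 columns that all entered the fit.

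GENCODE M21 gave the names and transcript lengths of 55450 of 55450 identifiers. Tests were run in edgeR 4.0.16 under R 4.3.3 (filterByExpr by group, TMM factors, quasi-likelihood fit with 1 term per group over all 12 libraries, two-sided tests, Benjamini-Hochberg adjustment over 20417 tested genes). The common dispersion was 0.343, with 6 residual and 3.43 prior degrees of freedom. The SE of a log2 fold change is its absolute value divided by the root of its F statistic. Genes were also counted at the study's thresholds, an unadjusted p under 0.05 together with an absolute log2 fold change above 1. The model was tested on simulated data.

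The 35 genes, the 14 other lists with 192 genes and the tests were chosen with earlier results of these data known. Of those 192, Fcn3 was not matched. Values in every library were given for 19 defining genes fixed by name and for further genes past a threshold against pMCS. Other lists were given by counts, and up to 4 genes of a list with the smallest p could be named, besides defining markers of other cell types. S1pr1 and Sox17, outside these 19, and Vegfa, Reln, Pdpn and Krt8 were named after their values were seen. Where both libraries of a group were at 0, each was set to 3 counts to give a lower bound of the fold, and such bounds cover counting error only. Alternatives were RLE scaling, no filter, the compared groups alone, a replicate block, a length trend covariate, the removal of each library in turn, DESeq2 1.42.0 and the exact test of edgeR. Promoters came from RefSeq on GRCm38.p6, and 250 bases upstream of each start were searched on both strands.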

Additional observations from a re-analysis of the deposited data

Results flagged for a closer look

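The effect of IL-18 on Flt1 and on Vwf had opposite directions after pMCS and after IL-27, with no overlap between libraries in either case. Both genes were picked by this separation, so it is no result in itself. How many of all genes meet the same rule was not counted. In IL-18 against pMCS alone, 19.3% of all genes were above in both libraries and 19.4% below. For Flt1, the VEGF receptor that acts as a decoy, both IL-18 libraries (32.6 and 51.3 CPM) were above both pMCS libraries (26.4 and 26.5 CPM), and both 27→18 libraries (33.5 and 24.4 CPM) were below both IL-27 libraries (35.3 and 36.6 CPM). The difference of the 2 effects was -0.98 ± 0.60 (SE) on the log2 scale in edgeR's test, with an unadjusted p of 0.133 and an adjusted p of 0.948, and it did not pass.

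For Vwf, von Willebrand factor, both IL-18 libraries (7.37 and 23.3 CPM) were above both pMCS libraries (5.23 and 7.28 CPM), and both 27→18 libraries (5.57 and 6.46 CPM) were below both IL-27 libraries (16.5 and 6.92 CPM). The difference was -2.25 ± 0.92 (SE) on the log2 scale, with an unadjusted p of 0.0355 and an adjusted p of 0.948 in edgeR's test, and it did not pass after adjustment.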

How the results depend on the processing

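Libraries were not treated as pairs by their number in the main fit, and the replicate block is given here only. Over 15 pairs of groups, same-numbered libraries correlated in their deviations from the group means at -0.28 to 0.34. With 2 libraries per group, these values cannot decide whether a pairing or shared batch exists. With the replicate block the members past the study's thresholds were 0 in IL-27 against pMCS and 0 in 27→18 against IL-27, and it moved no other count by more than 1.5 times. Without the filter on low counts these members numbered 3 in IL-18, 7 in IL-27, 5 in 27pepL and 8 in 27pepL→18 against pMCS, 10 in 27pepL and 7 in 27→18 against IL-27, and 2 in 27pepL→18 against 27pepL, and members past an adjusted p of 0.05 numbered 2 in 27pepL→18 against pMCS, 4 in 27pepL and 1 in 27→18 against IL-27. With the compared groups alone there were 0 in IL-27 against pMCS, 1 in 27pepL against IL-27 and 0 in 27→18 against IL-27. With the length trend as a covariate there were 2, 9 and 0 in the same order. edgeR's exact test gave 6 in 27pepL against IL-27 and no value for the effects of IL-18 after a plasmid. DESeq2 gave 2 in IL-27 against pMCS, 7 in 27pepL and 3 in 27→18 against IL-27 and 1 in 27pepL→18 against 27pepL, and 1 past an adjusted p in 27pepL→18 against pMCS. The cause of these changes was not tested.

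With each library left out in turn, members past the study's thresholds numbered 0 to 3 in IL-18, 0 to 14 in IL-27, 0 to 3 in 27pepL and 2 to 7 in 27pepL→18 against pMCS, 1 to 15 in 27pepL and 0 to 11 in 27→18 against IL-27, and 0 to 1 in 27pepL→18 against 27pepL. The counts of 14, 15 and 11 were those without IL-27 replicate 2. Members past an adjusted p numbered 0 to 1 in IL-27 against pMCS and 0 to 1 in 27pepL against IL-27, where the 1 was Nos3 without IL-27 replicate 2. The member median ranged from -0.11 to 0.73 in IL-18, -0.28 to 1.27 in IL-27, -0.16 to 0.56 in 27→18, -0.21 to 0.62 in 27pepL and -0.005 to 0.95 in 27pepL→18 against pMCS, from -1.08 to 0.39 in 27pepL and -1.09 to 0.45 in 27→18 against IL-27, and from 0.05 to 0.50 in 27pepL→18 against 27pepL. The log2 fold change of Nos3 turned to -0.20 in IL-27 against pMCS and to 0.39 in 27pepL against IL-27 without IL-27 replicate 1, and reached 2.77 and -2.59 without IL-27 replicate 2. Where a group was left with 1 library, that library was taken to vary as the others do. The log2 fold change of Esm1 in 27pepL against pMCS stayed between 1.18 and 1.80 and that of Emcn and Plvap in 27pepL→18 between 0.91 and 1.47 and between 0.78 and 1.57. With 2 libraries per group, changes of the size seen for most members could not be told from the spread.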

Other observations

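Pericyte and smooth muscle genes were followed beside the endothelial ones. Rgs5, a regulator of G protein signaling in pericytes, was at 66.4 and 94.7 CPM in pMCS, 102 and 199 in IL-18, 120.5 and 142 in IL-27, 84.2 and 69.4 in 27→18, 94.4 and 134 in 27pepL, and 179 and 111 in 27pepL→18. Its log2 fold change in IL-18 against pMCS was 0.90 ± 0.39 (SE, unadjusted p = 0.0455, adjusted p = 1) in edgeR's test. Pdgfrb, the receptor by which endothelium recruits pericytes, was at 40.2 and 52.1 CPM in pMCS, 80.3 and 92.8 in IL-18, 77.7 and 50.8 in IL-27, 66.4 and 40.3 in 27→18, 57.3 and 77.02 in 27pepL, and 79.3 and 94.2 in 27pepL→18, with 0.91 ± 0.34 (SE, unadjusted p = 0.024, adjusted p = 1) in 27pepL→18. Both 27pepL→18 libraries were above both pMCS libraries for both genes, where 14.1% of all genes were, and neither gene passed the adjusted test.

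Gja1, connexin 43, a gap junction protein listed with the lymphatic companions and widely expressed, was at 283 and 319 CPM in pMCS, 389 and 439 in IL-18, 275 and 374 in IL-27, 323 and 321 in 27→18, 449 and 494 in 27pepL, and 389 and 465 in 27pepL→18. Its log2 fold change in 27pepL was 0.65 ± 0.27 (SE, unadjusted p = 0.0363, adjusted p = 1). Unc5b, a netrin receptor of tip cells, was at 47.6 and 76.004 CPM in pMCS, 101 and 105 in IL-18, 52.7 and 76.5 in IL-27, 69.5 and 58.02 in 27→18, 55.3 and 65.2 in 27pepL, and 79.8 and 66.7 in 27pepL→18, and both IL-18 libraries were above all the others, with 0.74 ± 0.31 (SE, unadjusted p = 0.0389, adjusted p = 1). Of all genes, 19.3% were above both pMCS libraries in both IL-18 libraries.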
